A study of Mus musculus with 4 samples.

Results

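The 10 genes described here encode glycosyltransferases of the gut epithelium, the Golgi enzymes that add one sugar at a time to glycoproteins and glycolipids: B3galt5, B4galnt2, Fut2, Fut8, B3gnt7, B3gnt3, St3gal4, St6gal1, C1galt1 and Gcnt3. They were picked by gene name, 10 of 56748 genes in the deposited table, and they were selected on measured values, because the difference between the genotypes in these same libraries was known when they were picked. RNA-seq was made from whole small intestine (SI) of irradiated mice, 2 libraries of p53+/+ mice (labelled WT) and 2 of p53-/- mice. All mice received 12 Gy of total-body irradiation (TBI) from a cesium source and were sampled 1 day later, so an unirradiated SI is not part of the comparison. The mice came from the Jackson Laboratory, were 8 to 12 weeks old and were matched for age and gender. The p53-/- mice lack the Trp53 gene product from the germline on, so epithelium, immune cells and stroma all lack p53, and the question the comparison addresses is what the loss of p53 changes in the irradiated SI.

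Glycans on the gut surface are built stepwise. Core enzymes start a chain on a protein, extending enzymes lengthen it with galactose and N-acetylglucosamine (GlcNAc), and terminal enzymes close it with fucose, sialic acid or N-acetylgalactosamine. The finished chains coat mucins and the brush border, carry the blood group antigens of the gut, and serve microbes as food and as docking sites.

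The libraries held between 15005479 and 22173164 counts, and are named 7 and 8 (p53+/+) and 9 and 10 (p53-/-) after the table's columns. Levels are given as normalised CPM, the counts of a gene scaled to a fixed total by TMM factors. Trp53 was at 57.7 and 47.1 CPM in libraries 7 and 8 and at 19.8 and 22.5 CPM in libraries 9 and 10, a log2 fold change of -1.31 (SE 0.19; adjusted p = 0.0602 by edgeR's quasi-likelihood test and 4.27e-05 by DESeq2), so reads of the targeted gene were fewer but not missing. Library 10 stood apart by its summed B cell markers (523 CPM, against 25.8 CPM in library 9 and 2.17 and 3.05 CPM in the p53+/+ libraries), by 588 counts of Xist, an RNA of female cells, against at most 4 elsewhere, and by the ribosomal RNA gene Rn18s-rs5, which took 4.59% of its counts against 0.296 to 0.863%. The Xist counts of library 10 go against the stated matching for gender, and sex cannot be told apart from the other differences between libraries 9 and 10. Library 8 stood apart by its smooth muscle markers, which summed to 4495 CPM against 481 to 995 CPM. The defining markers of enterocytes were abundant in every library, but lower in the p53-/- libraries (24263 and 20031 CPM summed) than in libraries 7 and 8 (32166 and 31788 CPM); of 11, edgeR called 0 lower, 4 were lower at an unadjusted p under 0.05, and DESeq2 called 5. Ileum markers summed to 9045 and 5218 CPM in p53+/+ SI and 3466 and 3839 CPM in p53-/- SI, where of 6 tested edgeR called 0, 4 were lower at an unadjusted p under 0.05 and DESeq2 called 4 lower. Colon markers summed to 58.4 to 82.5 CPM and Scnn1b was at 0 in all 4. The labels do not tie the libraries to animals, though the study's methods describe its replicates as biological, and p-values measure only the spread between these samples. In such bulk tissue, fewer cells of a type and less RNA per cell cannot be told apart.

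Among the 10 genes, B3galt5, Fut2, St6gal1 and B3gnt7 had the largest differences toward p53-/-, with log2 fold changes between 1.95 and 5.35, and Gcnt3 had the largest in the other direction (-0.96). Libraries 9 and 10 were both above libraries 7 and 8 for 5 genes (these 4 and Fut8), below them for 2 (St3gal4 and Gcnt3), and 3 overlapped (B4galnt2, B3gnt3 and C1galt1). Of all 16094 genes tested, 26.4% lay above and 24.4% below in the same way. All 10 genes passed the filter on low counts. By edgeR, B3galt5 was the 1 gene of the 10 past an adjusted p of 0.05 toward p53-/- and 0 were past it in the other direction, with 6 at an unadjusted p under 0.05. Of all 16094 genes tested, 0.298% were called higher and 0.193% lower, and 2892 had an unadjusted p under 0.05. DESeq2 called 4 of the 10 higher (B3galt5, Fut2, B3gnt7 and St6gal1) and 1 lower (Gcnt3), where it called 5.11% of all genes higher and 3.54% lower. On simulated counts, DESeq2 called more unchanged genes than edgeR did. By edgeR, 4 of the 10 were called higher and 1 lower when library 8 was left out, and none when library 10 was. Since the genes were selected on this contrast, these counts describe the selection, and the fold changes of the 10 genes below are given with an SE as a description. The median log2 fold change was 0.47 over the 10 genes and -0.01 over all genes tested.

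**Figure D1:**
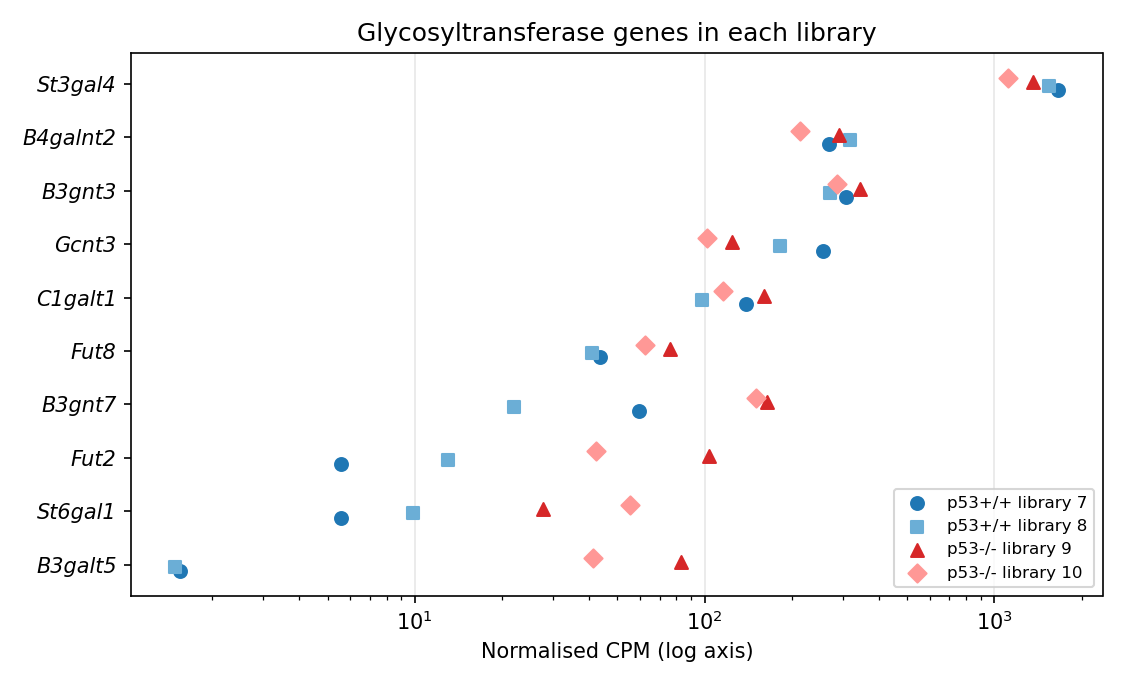
Normalised CPM (log axis) of the 10 glycosyltransferases in each library, p53+/+ libraries 7 and 8 and p53-/- libraries 9 and 10, each point 1 library. B3galt5 moved from about 1.5 CPM to 83.0 and 41.3 CPM, while St3gal4 stayed above 1000 CPM in all 4 libraries.

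B3galt5 (ENSMUSG00000074892) encodes a β1,3-galactosyltransferase that makes type 1 chains, the galactose-GlcNAc ends on which gut epithelium builds its Lewis and H antigens. Its level was 1.55 CPM in library 7 and 1.49 CPM in library 8, and 83.0 CPM in library 9 and 41.3 CPM in library 10. The p53+/+ libraries held 25 and 23 reads of it, and the p53-/- libraries 1894 and 831. The p53+/+ libraries were thus close together, both p53-/- libraries were far above them, and library 9 was 2.01 times library 10. The mean was 1.52 ± 0.0388 CPM in p53+/+ SI and 62.2 ± 29.5 CPM in p53-/- SI (SD, n = 2 each), a log2 fold change of 5.35 (SE 0.44), which ranked 80 among the genes tested. The mean in p53-/- SI was 40.9 times that in p53+/+ SI. Leaving out library 9 gave a log2 fold change of 4.75 and leaving out library 10 gave 5.82; in the latter case edgeR called 0 of all genes tested, B3galt5 included, with 1201 at an unadjusted p under 0.05.

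RefSeq lists 3 start sites for B3galt5 on chromosome 16, and their windows of 250 bases before to 50 bases after the start are shown because this gene had the largest difference. One of the 3 windows of St6gal1 and the window of St3gal4 are shown beside them because these are the other windows with a p53 half-site; the remaining 2 windows of St6gal1 held none of the motifs. Coordinates and letters are those of GRCm38.p6, which is not known to be the authors' build, each window reads 5′ to 3′ on the gene's strand, and capitals mark the searched motifs.
B3galt5 start 1, chr16:96235551-96235850, plus strand: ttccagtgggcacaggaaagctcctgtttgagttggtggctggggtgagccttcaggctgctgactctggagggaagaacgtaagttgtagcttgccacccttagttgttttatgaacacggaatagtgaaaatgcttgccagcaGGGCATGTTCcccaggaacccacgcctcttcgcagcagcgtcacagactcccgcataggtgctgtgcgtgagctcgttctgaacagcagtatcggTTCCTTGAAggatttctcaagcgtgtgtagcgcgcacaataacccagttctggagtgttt
B3galt5 start 2, chr16:96273263-96273562, plus strand: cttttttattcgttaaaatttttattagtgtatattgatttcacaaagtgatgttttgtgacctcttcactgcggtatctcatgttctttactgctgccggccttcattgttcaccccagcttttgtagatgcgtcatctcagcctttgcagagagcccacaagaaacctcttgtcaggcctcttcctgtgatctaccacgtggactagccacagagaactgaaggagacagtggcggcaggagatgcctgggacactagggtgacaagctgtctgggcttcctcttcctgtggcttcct
B3galt5 start 3, chr16:96280782-96281081, plus strand: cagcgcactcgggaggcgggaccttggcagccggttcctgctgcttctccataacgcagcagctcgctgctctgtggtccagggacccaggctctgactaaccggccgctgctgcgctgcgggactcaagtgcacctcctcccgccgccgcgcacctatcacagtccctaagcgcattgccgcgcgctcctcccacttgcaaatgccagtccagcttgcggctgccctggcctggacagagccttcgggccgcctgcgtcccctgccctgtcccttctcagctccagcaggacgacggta
St6gal1 start 1, chr16:23224490-23224789, plus strand: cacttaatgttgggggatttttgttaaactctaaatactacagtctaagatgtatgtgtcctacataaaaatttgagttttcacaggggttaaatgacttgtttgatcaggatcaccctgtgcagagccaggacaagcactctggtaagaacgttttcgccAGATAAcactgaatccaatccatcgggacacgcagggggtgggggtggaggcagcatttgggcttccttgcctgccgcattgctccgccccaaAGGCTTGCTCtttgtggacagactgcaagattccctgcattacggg
St3gal4, chr9:35116815-35117114, minus strand: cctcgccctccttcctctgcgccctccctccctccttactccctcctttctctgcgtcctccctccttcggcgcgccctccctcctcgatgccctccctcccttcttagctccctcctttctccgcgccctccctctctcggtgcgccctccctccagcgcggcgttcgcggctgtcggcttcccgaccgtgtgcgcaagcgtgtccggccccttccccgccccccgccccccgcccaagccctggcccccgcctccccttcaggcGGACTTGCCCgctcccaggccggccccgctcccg
The capitals in the first B3galt5 window are a p53 half-site that begins at position -105 and a STAT motif (TTCNNNGAA) at -10, counted from the start base as 0. The windows of B3galt5 starts 2 and 3 held none of the motifs. In the St6gal1 window shown the capitals are a p53 half-site at 4 and a GATA motif (AGATAA) at -89, and in the St3gal4 window a p53 half-site at 16. Both strands were searched in the windows of 8 of the 10 genes, 15 windows in all; Fut2 and Gcnt3 had no entry. A p53 half-site was in 3 of the 15 windows and in 8.36% of all 32851 windows, the STAT motif in 1 and in 8.3%, GATA in 3 (also B3gnt7 and Fut8) and in 11.18%. The HNF4 motif (CAAAGTCCA) was in 1 (B3gnt3) and in 0.47%, the CDX motif (CAATAAA) in 1 (Fut8) and in 4.6%, and the HNF1 half-site (GTTAAT) in 0 and in 7.1%. A match is a description of the letters only. The p53 half-site was thus in a window of a gene far higher in p53-/- SI, of another higher one (St6gal1) and of St3gal4. For St3gal4 the log2 fold change was -0.38 (SE 0.26), and 0.10 with pan-epithelial scaling, so its direction depended on the scaling.

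Among the extending enzymes, B3gnt7 and B3gnt3 add GlcNAc in β1,3 linkage. B3gnt7, which works on sulfated poly-N-acetyllactosamine chains of the keratan sulfate type, was at 59.3 and 22.1 CPM in p53+/+ libraries 7 and 8 and at 164 and 150.1 CPM in p53-/- libraries 9 and 10. The p53-/- libraries were close together (a ratio of 1.09) and the p53+/+ libraries were not (2.69), yet the groups did not overlap. Its log2 fold change was 1.95 (SE 0.46), with 2.84 when library 7 and 1.40 when library 8 was left out. B3gnt3, which extends core 1 O-glycans, was at 307 and 271 CPM against 344 and 287 CPM, with overlapping groups and a log2 fold change of 0.12 (SE 0.20).

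The β1,3-galactosyltransferases of the SI had a different make-up in the genotypes. Compared per kilobase of exon, B3galt5 made up 1.48% and 1.94% of the summed level of its family in p53+/+ SI and 55.1% and 38.3% in p53-/- SI. B3galt4, which acts on gangliosides, made up 81.7% and 75.8% in p53+/+ SI and 34.5% and 47.9% in p53-/- SI. Its own level changed less, from 21.97 and 14.92 CPM to 13.32 and 13.28 CPM. The log2 fold change of B3galt4 was -0.47 (adjusted p = 0.453 by edgeR). A share also falls when another member of the family rises, and B3galt5 was selected on this contrast. In library 9 B3galt5 was thus the most abundant member per length, and in library 10 B3galt4 was. Within the β1,3-GlcNAc transferases, B3gnt7 made up 11.8% and 5.31% in p53+/+ SI and 25.1% and 26.4% in p53-/- SI, and B3gnt3 82.5% and 88.4% against 71.4% and 68.3%.

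**Figure D2:**
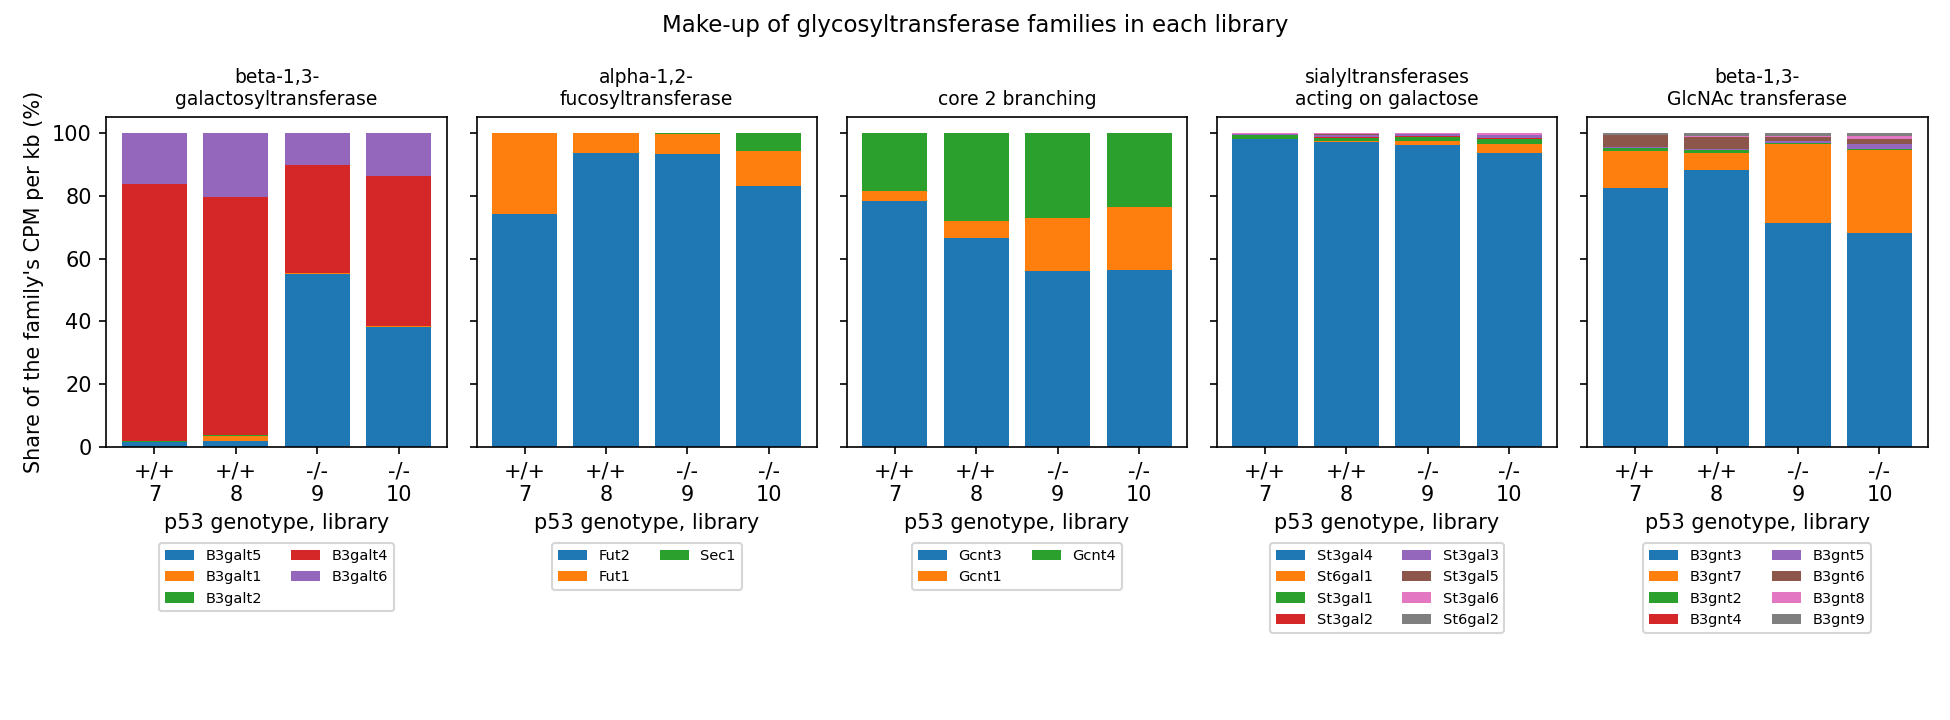
Share (%) of each family's summed CPM per kilobase by library, 1 bar a library, for 5 families that hold 7 of the 10 enzymes (not B4galnt2, Fut8 and C1galt1). B3galt5 went from 1.48 and 1.94% of its family to 55.1 and 38.3%, and St3gal4 held over 93% of its panel in every library.

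Fut2 encodes the α1,2-fucosyltransferase that makes the H antigen on gut surfaces, and is known in mice for the fucosylation of the SI epithelium that microbial and IL-22 signals can induce. Its level was 5.57 CPM in library 7, 13 CPM in library 8, 103 CPM in library 9 and 42.3 CPM in library 10. Library 9 was the highest, at 2.44 times library 10, and the lower p53-/- library was still above the higher p53+/+ library. The mean was 9.27 ± 5.24 CPM in p53+/+ SI and 72.7 ± 43.1 CPM in p53-/- SI (SD, n = 2 each), and the log2 fold change was 2.97 (SE 0.58), with 2.19 when library 9 and 3.52 when library 10 was left out. Per kilobase, Fut2 held 74.3% and 93.6% of the α1,2-fucosyltransferases Fut1, Fut2 and Sec1 in p53+/+ SI and 93.3% and 83.3% in p53-/- SI, so the share overlapped while the family's sum went from 1.38 and 2.55 to 20.4 and 9.34 CPM per kilobase. Fut1, its paralog, had a log2 fold change of 2.18 (adjusted p = 0.161 by edgeR), and Sec1, which lies beside Fut2, had 0, 0, 2 and 26 counts in libraries 7 to 10. Reads of these related genes could be assigned to one another by the counting, which was not checked here.

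Expression of the epithelial genes that IL-22 and microbes induce was measured in the same libraries. The 10 genes of that list (among them Reg3b, Reg3g and Duox2) summed to 6550 and 9866 CPM in p53+/+ SI and 30594 and 33286 CPM in p53-/- SI. Of the 10, 1 was called higher by edgeR (Duoxa2) and 6 by DESeq2, beside 0.298% and 5.11% of all genes tested. A positive log2 fold change was seen for 9 of the 10, and 9 were higher at an unadjusted p under 0.05. The part of this list in the difference of Fut2 and B3galt5 was not tested.

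B4galnt2, which adds N-acetylgalactosamine to sialylated chains to make the Sda antigen of gut epithelium, was at 270 and 317 CPM in p53+/+ SI and 290 and 213 CPM in p53-/- SI. The groups overlapped and the log2 fold change was -0.22 (SE 0.23). Gm11534, a gene on the opposite strand that shares 263 exon bases with it, held at most 17 counts.

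St3gal4 and St6gal1 are the sialyltransferases among the 10 genes, and they differed widely in level. St3gal4, which adds α2,3-linked sialic acid, was the most abundant of the 10 per kilobase in both genotypes, at 549.7 CPM per kilobase in p53+/+ SI and 421.9 in p53-/- SI, and its CPM were 1664 and 1550 against 1355 and 1111. Both p53-/- libraries were lower, with a log2 fold change of -0.38 (SE 0.26). With pan-epithelial scaling St3gal4 was at 0.10, so its direction depended on the scaling. St6gal1, which adds α2,6-linked sialic acid and is also abundant in B cells and plasma cells, was at 5.57 and 9.86 CPM in libraries 7 and 8 and at 27.7 and 55.2 CPM in libraries 9 and 10. Of the 10 genes, only St6gal1 had its highest level in library 10, which exceeded library 9 by 0.99 on the log2 scale. Its log2 fold change was 2.42 (SE 0.45), and was 1.89 without library 10 and 2.83 without library 9. St6gal1 made up 0.195% and 0.367% of the per-kilobase level of its panel in p53+/+ SI and 1.17% and 2.77% in p53-/- SI, against 98.0% and 97.1%, then 96.2% and 93.8%, for St3gal4.

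Summed markers of immune cells were also higher in both p53-/- libraries. B cell markers summed to 2.17, 3.05, 25.8 and 523 CPM in libraries 7 to 10, with 7 of 8 tested and 3 at 0 in both p53+/+ libraries. T cell markers summed to 6.62, 14, 59.1 and 113 CPM, and plasma cell markers to 727, 699, 1684 and 2028 CPM. By edgeR, 0 of 7 B cell and 0 of 8 T cell markers were called, and 1 of 6 plasma cell markers was called higher. At an unadjusted p under 0.05, 7, 8 and 5 were higher, and 1 plasma cell marker was lower. DESeq2 called 7, 8 and 4 higher, and 1 plasma cell marker lower. The part of these cells in the level of St6gal1 was not tested. All of the 10 genes but St6gal1 were lower in library 10 than in library 9, B3galt5 and Fut2 by 1.01 and 1.29 (log2). The sum of the pan-epithelial markers was also lower there, with a log2 ratio of -0.234. The part of cell make-up in these differences was not tested.

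**Figure D3:**
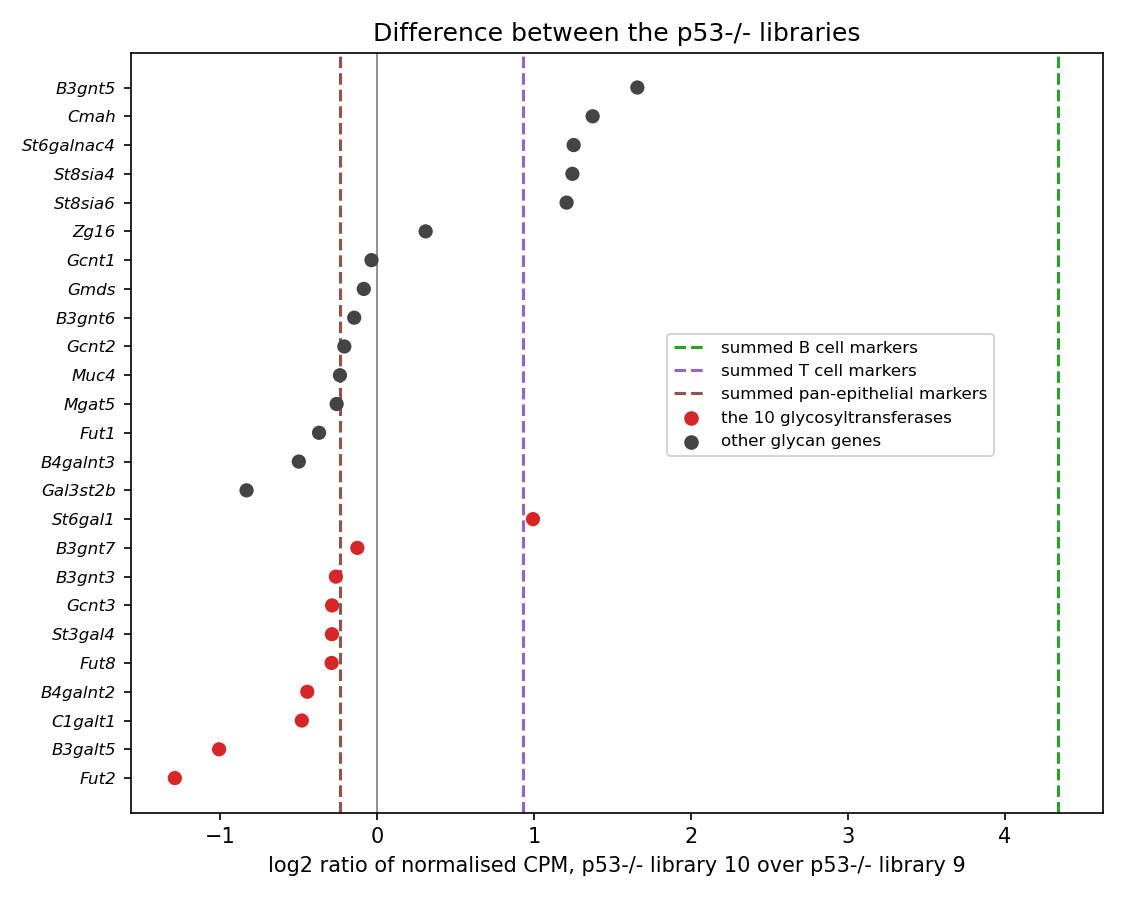
Log2 ratio of normalised CPM of p53-/- library 10 over library 9 for the 10 glycosyltransferases (red) and other named glycan genes (dark), each point 1 gene, with dashed lines at the ratios of summed B cell, T cell and pan-epithelial markers. St6gal1 lay at 0.99, near the T cell line, and B3galt5 and Fut2 lay at -1.01 and -1.29, left of the pan-epithelial line.

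Of the core enzymes, C1galt1, which makes core 1 of O-glycans, was at 139 and 98.2 CPM in p53+/+ SI and 161 and 115 CPM in p53-/- SI, with overlapping groups and a log2 fold change of 0.22 (SE 0.26). Gcnt3, the mucin-type enzyme that branches O-glycans into core 2 and core 4, was at 257 and 183 CPM in p53+/+ libraries 7 and 8 and at 124 and 102 CPM in p53-/- libraries 9 and 10. Both p53-/- libraries lay below both p53+/+ libraries. The mean was 220 ± 52.8 CPM against 113 ± 15.8 CPM (SD, n = 2 each), a log2 fold change of -0.96 (SE 0.24). Gcnt1, the core 2 enzyme of many tissues, was at 13.9 and 20.0 CPM in p53+/+ SI and 49.9 and 48.7 CPM in p53-/- SI. Its log2 fold change was 1.54 (adjusted p = 0.0637 by edgeR), and between 1.31 and 1.82 with 1 library left out. Per kilobase, Gcnt3 made up 78.4% and 66.5% of the branching enzymes in p53+/+ SI and 56.2% and 56.4% in p53-/- SI, and Gcnt1 3.17% and 5.45% against 16.9% and 20.2%.

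Fut8, which puts the core α1,6-fucose on N-glycans, was at 43.6 and 40.8 CPM in p53+/+ SI and 76.2 and 62.3 CPM in p53-/- SI. The groups did not overlap, and the log2 fold change was 0.71 (SE 0.17).

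**Figure D4:**
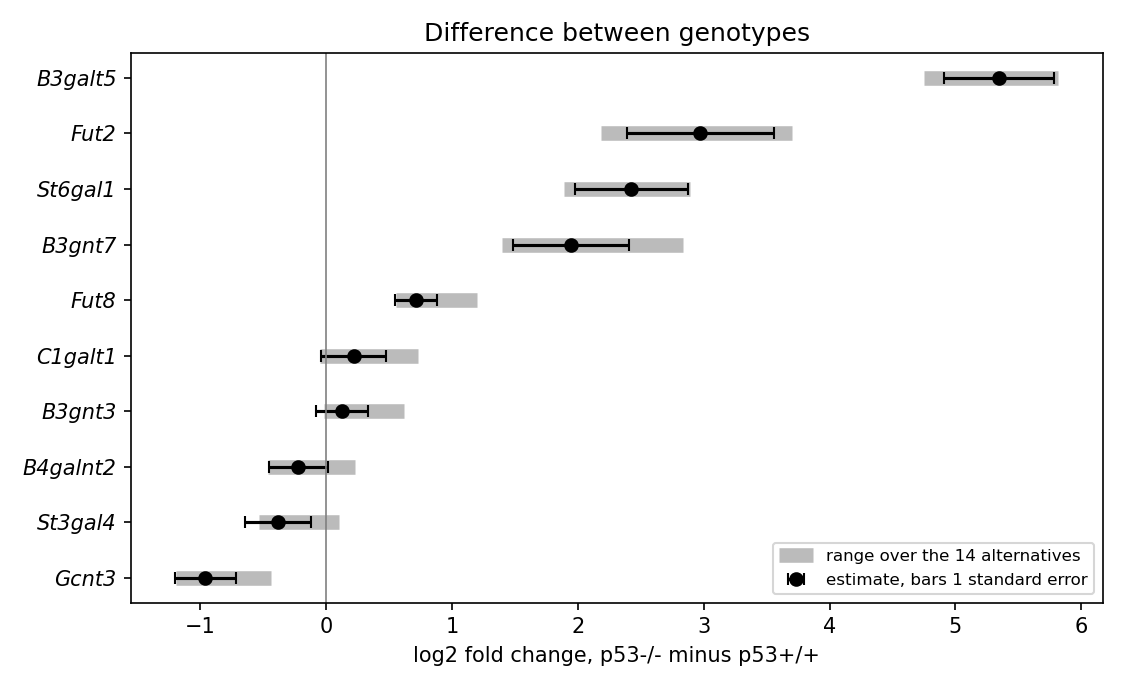
Log2 fold change (p53-/- minus p53+/+) of the 10 genes with its SE as thin bars and its range over 14 alternative analyses as grey bars, 1 point a gene. The values run from -0.96 for Gcnt3 to 5.35 for B3galt5, and the grey bars of C1galt1, B3gnt3, B4galnt2 and St3gal4 cross 0.

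The order of the 10 genes by level per kilobase was partly the same in the genotypes. In p53+/+ SI it ran from St3gal4 (549.7 CPM per kilobase) over B4galnt2 (170.4), B3gnt3 (94.6), Gcnt3 (51.1), C1galt1 (19.5), B3gnt7 (9.83), Fut8 (5.34), Fut2 (1.71) and St6gal1 (1.57) to B3galt5 (0.247). The libraries of B3gnt7 and Fut8 overlapped, as did those of Fut2 and St6gal1, and all other neighbours in that order were apart. In p53-/- SI, St3gal4 (421.9), B4galnt2 (146), B3gnt3 (103) and B3gnt7 (37.9) led, each apart from the next. From Gcnt3 (26.3) over C1galt1 (22.7), Fut2 (13.4), B3galt5 (10.1) and Fut8 (8.76) to St6gal1 (8.43), each pair of neighbours overlapped. B3galt5 was the lowest of the 10 per kilobase in p53+/+ SI and was above Fut8 and St6gal1 in mean level in p53-/- SI.

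Markers of the epithelium as a whole were lower in the p53-/- libraries, at 14355 and 12210 CPM summed against 22371 and 15810 CPM. Of 12, 0 were called by edgeR, and DESeq2 called 3 lower. At an unadjusted p under 0.05, 3 were lower and 1 was higher (Esrp1, log2 fold change 0.52). When libraries were scaled to that sum, the median log2 fold change of all genes moved from -0.01 to 0.48 and the genes called by edgeR went from 48 higher and 31 lower to 160 higher and 18 lower. On that scale B3galt5 was at 5.82, Fut2 at 3.33, St6gal1 at 2.89, B3gnt7 at 2.55, Fut8 at 1.2, C1galt1 at 0.73 and B3gnt3 at 0.62 on the log2 scale. St3gal4 (0.10) and B4galnt2 (0.23) turned from negative to positive, and Gcnt3 was at -0.44. Read against the shifted median, St3gal4, B4galnt2 and Gcnt3 lay below it and the other 7 above it.

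The rest of the pathway was read from 9 lists of 129 genes in the table, of which 105 were tested. Muc4, a membrane mucin, was the 1 gene that rose, and 0 fell, by edgeR, with 11 higher and 9 lower at an unadjusted p under 0.05. Over all 16094 genes tested, edgeR called 0.298% higher and 0.193% lower, and 2892 had an unadjusted p under 0.05. DESeq2 called 8 of the listed genes higher and 4 lower, beside 5.11% and 3.54% of all genes. The median log2 fold change over the 105 genes was -0.08, and 47 were positive. Libraries 9 and 10 were both above libraries 7 and 8 for 22 of the 105 and below for 32, against 26.4% and 24.4% of all genes.

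Muc4 was at 8.91 and 6.94 CPM in p53+/+ SI and 60.1 and 51.0 CPM in p53-/- SI, a log2 fold change of 2.81 (SE 0.22; adjusted p = 0.0271 by edgeR). The call was lost without library 9 (log2 fold change 2.68; adjusted p = 0.0573 by edgeR) and without library 10 (2.98; 0.189), each of which left 1 p53-/- library. In the mucin and mucus layer list it was the 1 of 12 called by edgeR, with 3 higher and 1 lower at an unadjusted p under 0.05. DESeq2 called 1 higher, Muc4, and 1 lower, Zg16. Zg16, a goblet cell lectin, was at -0.96 (adjusted p = 0.255 by edgeR and 0.00673 by DESeq2).

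Supply of the fucose donor was represented by 6 genes tested, of which 0 were called by edgeR. Gmds, the first enzyme of GDP-fucose synthesis, was at 192 and 167 CPM in p53+/+ SI and 350.1 and 330.2 CPM in p53-/- SI, a log2 fold change of 0.92 (adjusted p = 0.110 by edgeR); 1 of the 6 had an unadjusted p under 0.05 and DESeq2 called 1 higher, this gene. The median of that list was -0.13. In the fucose and blood group list of 12 genes tested, 0 were called by either tool, 2 had an unadjusted p under 0.05 (Fut1 higher, B4galnt3 lower), and the median was 0.14.

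In the sialic acid lists, 0 of 11 sialyltransferases and 0 of 5 donor genes were called by edgeR, with 3 and 1 at an unadjusted p under 0.05 and the same numbers called higher by DESeq2. Cmah, which turns Neu5Ac into Neu5Gc in the donor, was at 0.681 and 2.27 CPM in p53+/+ SI and 8.81 and 22.8 CPM in p53-/- SI (log2 fold change 3.42; adjusted p = 0.123 by edgeR). The α2,8-sialyltransferases St8sia6 (3.27; adjusted p = 0.148) and St8sia4 (2.27; 0.232) and the α2,6-sialyltransferase of O-glycans St6galnac4 (1.90; 0.216) pointed the same way by edgeR without passing its threshold. These 4 genes, like St6gal1, had more in library 10 than in library 9, with log2 ratios of 1.21 to 1.37. B cell markers were also higher there, and the part of those cells was not tested. Leaving out 1 library moved the log2 fold change of Cmah between 2.61 (without library 10) and 4.52 (without library 8), of St8sia6 between 2.58 and 4.61, of St8sia4 between 1.55 and 3.63, and of St6galnac4 between 1.19 and 2.61, at the same libraries. Each of these fits leaves 1 library in a group, so only the log2 fold changes of these genes are given for them. Counts in libraries 7 and 8 were low, at 4 and 16 for St8sia6 and 14 and 56 for St8sia4. For St6galnac4 they were 27 and 59, and for Cmah 11 and 35. St8sia6 was not tested where at least 10 counts were asked for in every library.

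Among the chain transferases, 0 of 16 were called by edgeR, 4 had an unadjusted p under 0.05, DESeq2 called 1 higher (B3gnt5, which starts lacto-series glycolipids), and the median was -0.39. B3gnt5 had a log2 fold change of 2.04 (adjusted p = 0.203 by edgeR), which was 1.04 without library 10, where its level was 3.16 times that of library 9. B3gnt6, the core 3 enzyme of gut O-glycans, had -0.97 (adjusted p = 0.222 by edgeR). Of 18 O-glycan initiating and core genes, 0 were called by edgeR and 2 had an unadjusted p under 0.05 (Gcnt1 higher, Gcnt2 lower), and DESeq2 called Gcnt1 higher. Of 15 N-glycan genes, 0 were called by edgeR and 1 had an unadjusted p under 0.05. That gene was Mgat5, a branching GlcNAc transferase, at 252 and 182 CPM in p53+/+ SI and 113 and 95 CPM in p53-/- SI, which DESeq2 called lower. Its log2 fold change was -1.06 (adjusted p = 0.118 by edgeR), and between -1.28 and -0.80 with 1 library left out. Of 10 sulfotransferases, 0 were called by edgeR, 2 had an unadjusted p under 0.05, and DESeq2 called 2 lower, among them Gal3st2b. Gal3st2b had a log2 fold change of -1.88 (adjusted p = 0.110 by edgeR), and between -2.36 and -1.48 with 1 library left out.

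**Figure D5:**
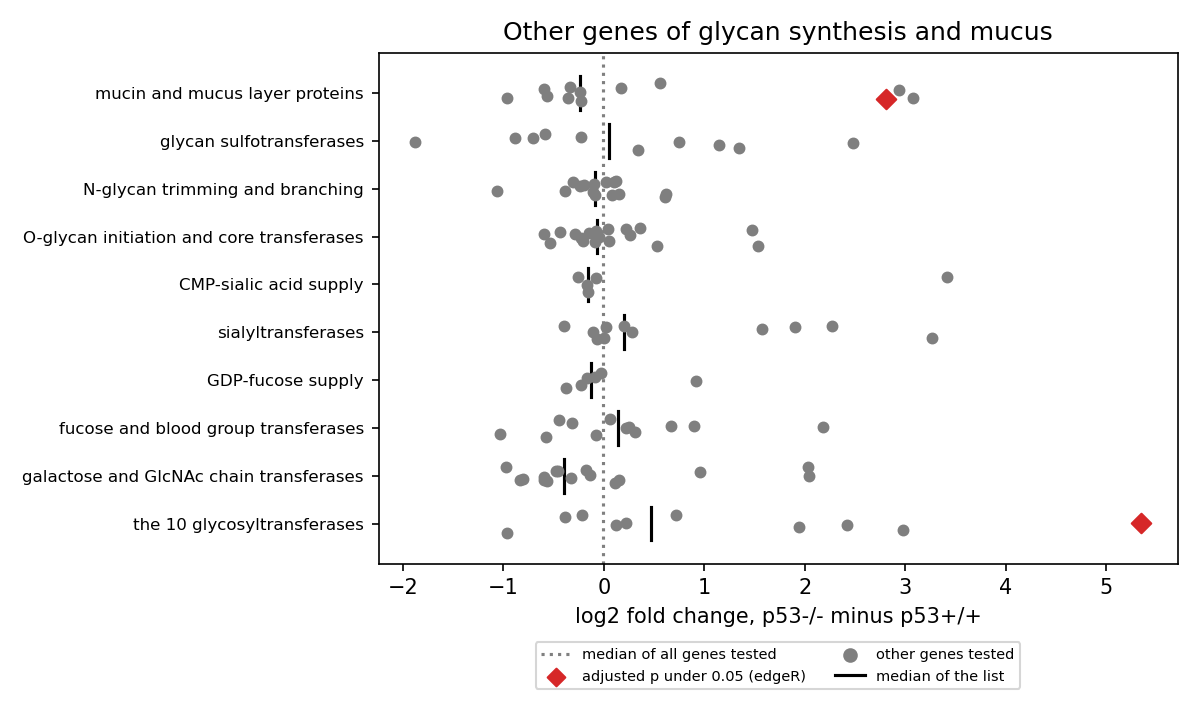
Log2 fold change (p53-/- minus p53+/+) of the 10 glycosyltransferases and of the genes tested in 9 glycan and mucus lists, 1 point a gene, with a bar at each list's median and a dotted line at the median of all genes. Diamonds mark an adjusted p under 0.05 by edgeR, which among the genes of the 9 lists was Muc4 alone (2.81), beside B3galt5 (5.35), which was selected on this contrast.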

How the data were processed

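RNA-seq counts of whole SI in 2 libraries of p53+/+ (labelled WT) and 2 of p53-/- mice were used, 1 day after 12 Gy TBI. The table deposited by the authors holds unnormalised counts for 56748 genes, from poly-A libraries made and sequenced by Novogene. The submitters' processing notes name fastp, HISAT2 2.0.5, featureCounts 1.5.0-p3 and DESeq2 1.20.0. The genome build, annotation and strand setting are not given in the sources used here, and the library protocol allows directional or non-directional kits, so reads of overlapping antisense genes (shared with B4galnt2, Fut8, B3gnt7, St3gal4 and St6gal1) cannot be told apart.

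From these counts, genes passing filterByExpr (16094) were scaled by TMM and tested with edgeR 4.0.16 (R 4.3.3), a two-sided quasi-likelihood test over all 4 libraries with genotype as the only term, Benjamini-Hochberg adjustment over all genes tested and a threshold of 0.05. The SE is the log2 fold change divided by the square root of the F statistic. DESeq2 1.42.0 was an alternative, and the scripts were tested on simulated data. With 200 genes changed by a log2 fold of 1, edgeR called 0 of them and 0 others, and DESeq2 45 and 50. At a log2 fold of 2, edgeR called 100 and 8, and DESeq2 139 and 61. The calls of DESeq2 there thus held a larger share of unchanged genes than its threshold of 0.05. Those of edgeR also did at a log2 fold of 2, by less. The simulated counts were drawn with the spread of each gene that edgeR had estimated from these libraries. The study's methods give t-tests for its assays; counts needed a count model. Other alternatives were RLE, upper-quartile, library-size and pan-epithelial scaling, a likelihood ratio test in edgeR, no low-count filter, a minimum of 10 counts per library, omission of antigen receptor segments, omission of each library, and Rn18s-rs5 left out, the last chosen after seeing the data.

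Levels per kilobase used exon lengths of GENCODE M21, which holds 91.8% of the gene IDs. Promoter windows are from RefSeq (GRCm38.p6). The p53 half-site was searched as its standard consensus. Libraries carry the numbers of their columns, which no label gives. The counts of replicates differed by far more than sampling noise (chi-square over its degrees of freedom, 48 in p53+/+ and 69.5 in p53-/-). The genes and the lists of other glycan genes and cell markers were chosen with earlier results of these data known. Of each list, the genes past the edgeR threshold are named, and up to 4 with the largest absolute log2 fold change at an average log2 CPM of at least 1, if their unadjusted p was under 0.05. St6galnac2 is on 2 rows, and the one with more counts was used. For B3galt5 and Fut2, the 5 protein-coding genes with the smallest Euclidean distance in log2 CPM (prior count 2), centred on the gene mean over the 4 libraries, are named, from 12280 genes at an average log2 CPM of at least 1.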

Additional observations from a re-analysis of the deposited data

How the results depend on the processing

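With edgeR and TMM, 48 genes were called higher and 31 lower in p53-/- SI. Upper-quartile scaling gave 29 and 20, library size alone 26 and 20, pan-epithelial scaling 160 and 18, DESeq2 816 and 565, the likelihood ratio test 833 and 462, no filter 1433 and 761 (27841 genes tested, where the median log2 fold change moved from -0.01 to 0.15), and at least 10 counts in every library 24 and 18. Leaving out 1 library gave 0 to 680 higher and 0 to 344 lower. Without library 10, 0 genes were called by edgeR (1201 at an unadjusted p under 0.05), without library 9, 77 and 9, without library 7, 325 and 319, and without library 8, 680 and 344. Of the 10 glycosyltransferases, 1 was called higher and 0 lower. Pan-epithelial scaling called 2 higher, DESeq2 4 and 1 lower, the likelihood ratio test 5 and 1, no filter 5 and 1, and leaving out 1 library 0 to 4 higher and 0 to 1 lower. Their median log2 fold change of 0.47 became 0.97 with pan-epithelial scaling. Of the other glycan genes, 1 was called higher; pan-epithelial scaling called 2 higher, DESeq2 8 and 4 lower, the likelihood ratio test 8 and 4, no filter 14 and 3, and leaving out 1 library 0 to 8 higher and 0 to 1 lower. The cause was not tested, except that leaving out a library leaves its group with 1, assumed to vary like the other group. Over the 14 alternatives the log2 fold change ranged from 4.75 to 5.82 for B3galt5, 2.19 to 3.70 for Fut2, 1.89 to 2.89 for St6gal1, 1.40 to 2.84 for B3gnt7, 0.56 to 1.2 for Fut8 and -1.19 to -0.44 for Gcnt3. Ranges crossed 0 for St3gal4 (-0.54 to 0.10), B4galnt2 (-0.46 to 0.23), B3gnt3 (-0.02 to 0.62) and C1galt1 (-0.05 to 0.73), none of them called in any. No paired analysis was possible because the columns carry no replicate number of the labels.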

Other observations

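Over the 4 libraries, the levels most like those of B3galt5 were those of Cd177, Gsdmc2, Dmbt1, Cxcl5 and Gsdmc4, with distances of 0.788 to 1.04 on the centred log2 scale. Dmbt1, a secreted scavenger receptor of mucosal surfaces, was at 79.9 and 128 CPM in p53+/+ SI and at 2580 and 1734 CPM in p53-/- SI. Cd177, a surface protein best known from neutrophils, was at 3.40 and 2.14 CPM against 136 and 119 CPM. Gsdmc2 and Gsdmc4, gasdermins of the gut epithelium, were at 0.124 and 0.389 against 13.7 and 8.11 CPM, and at 0.866 and 0.584 against 18.5 and 12.9 CPM. Cxcl5, a chemokine that draws neutrophils, was at 0.433 and 0.130 CPM in p53+/+ SI, from 7 and 2 counts, and at 11 and 7.86 CPM in p53-/- SI. All 5 were lower in library 10 than in library 9, as was B3galt5. The levels most like those of Fut2 were those of Apol10a, Herc6, Ccr9, Pla2g4c and Lrg1, with distances of 0.700 to 0.871. Apol10a was at 24.4 and 54.4 CPM in p53+/+ SI and at 321 and 261 CPM in p53-/- SI, so library 8 exceeded library 7 and library 9 exceeded library 10, in the order seen for Fut2. These genes were picked for their likeness over 4 libraries, and no test was made.

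Genes that lie next to B3galt5 in RefSeq's order were not called. Of the 3 on either side, Sh3bgr was at -1.19, Get1 at 0.09, Igsf5 at -0.26, Itgb2l at 0.68 and Pcp4 at -1.03 on the log2 scale, beside 5.35 for B3galt5, and 0 of these 5 were called by edgeR or DESeq2, with 0 at an unadjusted p under 0.05. Lca5l, the other neighbour, had too few counts to be tested. Beside Fut2, Izumo1 had 0, 1, 14 and 12 counts in libraries 7 to 10 (unadjusted p = 0.0153 and adjusted p = 0.176 by edgeR, adjusted p = 0.00924 by its likelihood ratio test). Ntn5 had 0, 0, 1 and 15 counts and Car11 2, 20, 14 and 1, while Rasip1 and Mamstr were at 0.13 and 0.15 on the log2 scale.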
